A study of Homo sapiens with 8 samples.

Results

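MADD, RAB3IP, RAB3GAP1, RAB3GAP2 and RAB8A, regulators and a target of the small GTPases Rab3 and Rab8, were examined in HEK293 cells that had received either LMI070 at 25 nM or DMSO. They are 5 of 21597 genes with at least 1 spliced read. MADD and RAB3IP were selected on measured values, the inclusion of 1 exon of each in these same libraries, so their exons, junctions and levels are described without a p, and where a call made across all features falls on one of them it is counted and nothing is read from it. RAB3GAP1, RAB3GAP2 and RAB8A were chosen for their function, though with earlier results of these data known, and are tested.

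Rab3 GTPases sit on secretory vesicles and cycle between a GTP-bound form that binds effectors and a GDP-bound form that is released from membranes. MADD is an exchange factor with a DENN domain that loads Rab3 and Rab27 with GTP, and it also binds the death domain of the TNF receptor TNFR1. RAB3GAP1 and RAB3GAP2 are the catalytic and the noncatalytic subunit of Rab3GAP, the complex that switches Rab3 off and that also acts as an exchange factor for Rab18. RAB3IP, also called Rabin8, is an exchange factor for Rab8, and RAB8A is a Rab8 GTPase that directs vesicles to the plasma membrane and the primary cilium.

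HEK293 is a long-established line of human embryonic kidney origin. LMI070, also known as branaplam, is an oral splicing modulator that strengthens 5′ splice sites following an exon end of GA, and DMSO is the solvent given to the control cells. Each group had 4 libraries of total RNA depleted of ribosomal RNA, numbered 13 to 16 for LMI070 and 9 to 12 for DMSO. The duration of treatment is not given in the sources used here, nor whether each library had a culture of its own, so a p below measures only the spread between these libraries.

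The junctions counted were those that match a GENCODE 29 intron of the 5 genes or use one of its splice sites, 326 of 653454 with a defined strand. All positions are on GRCh38. Libraries held 20362475 to 36118131 uniquely mapped junction reads. Lanes 7 and 8 of the sequencer each carried 2 libraries of each group. DMSO replicate 12 and LMI070 replicate 16 stood apart from the others when libraries were placed by multidimensional scaling of their spliced reads, and the values without them are given beside the results they move. Of 7 genes that mark HEK293 cells, 6 had at least 1 CPM (spliced reads scaled to a common library size) in every library, and the 7 summed to 98.5 to 103.9 CPM in LMI070 and 96.3 to 102.7 CPM in DMSO. Marker sums of blood cells, keratinocytes and hepatocytes stayed at or under 0.839 CPM in every library. Those of fibroblasts were 20.5 to 30.6 CPM in LMI070 and 18.25 to 22.3 CPM in DMSO, with 1 of 5 genes above 1 CPM in every library, and their part in the results was not tested.

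The sequences of the exons on which the results turn show how they end, since the last exon bases are part of the 5′ splice site. The MADD exon of 54 nt lies at chr11:47292543-47292596 on the plus strand, between introns 20 and 21 of transcript MADD-201, within its coding part. The MADD exons of 60 nt (chr11:47288968-47289027) and 70 nt (chr11:47326738-47326807) are shown beside it because they are alternative in the same transcript. The RAB3IP exon of 100 nt lies at chr12:69812778-69812877 on the plus strand and is exon 9 of 11 of transcript RAB3IP-201. Sequences are from GENCODE transcripts, 5′ to 3′, with the last 3 exon bases in capitals.
MADD 54-nt exon: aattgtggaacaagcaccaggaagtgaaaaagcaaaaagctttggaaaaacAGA
MADD 60-nt exon: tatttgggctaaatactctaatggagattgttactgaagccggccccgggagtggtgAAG
MADD 70-nt exon: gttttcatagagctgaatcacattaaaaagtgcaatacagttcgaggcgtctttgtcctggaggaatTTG
RAB3IP 100-nt exon: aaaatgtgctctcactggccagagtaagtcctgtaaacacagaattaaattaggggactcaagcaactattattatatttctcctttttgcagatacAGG

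The 54-nt MADD exon ended in AGA, as did 158 of the 18069 annotated cassette exons tested that had a sequence (0.874%). The 60-nt exon ended in AAG, an ending found in 17.4% of those exons, and the 70-nt exon in TTG, found in 2.65%. The RAB3IP exon ended in AGG, found in 2.56%. Intron bases could be read where another annotated transcript retains them. The 5′ splice sites of the RAB3IP and the 70-nt MADD exon follow, with exon bases in capitals, and that of the 54-nt exon was not read here because no genome sequence was used.
RAB3IP 100-nt exon, 5′ splice site: AGGgtaagtgac
MADD 70-nt exon, 5′ splice site: TTGgtaattaca

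MADD, the Rab3 exchange factor, had higher inclusion of its 54-nt exon in every LMI070 library than in any DMSO library. Inclusion is the mean of the reads into and out of the exon, divided by that mean plus the reads that skip it. It was 17.9%, 7.32%, 9.30% and 9.80% in LMI070 replicates 13, 14, 15 and 16, against 4.17%, 0%, 0.855% and 2% in DMSO replicates 9, 10, 11 and 12. The group means were 11.1% ± 4.66 in LMI070 and 1.75% ± 1.80 in DMSO (SD, n = 4 each), a difference of 9.32 percentage points. Replicate 13 was the highest LMI070 library, and without it the difference was 7.05 points. Without LMI070 replicate 16 it was 9.75 points, and without DMSO replicate 12 it was 9.40 points. The exon is a whole number of codons long and adds 18 codons to the reading frame. It is held by 2 annotated transcripts, MADD-201 and MADD-204, which also hold the 60-nt exon.

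The reads behind these shares were few. Reads into the exon numbered 11, 3, 5 and 5 in LMI070 and 2, 0, 0 and 1 in DMSO. Reads out of it numbered 16, 3, 3 and 5 in LMI070 and 2, 0, 1 and 1 in DMSO. Reads that skipped it, over an intron at chr11:47290817-47293882, numbered 62, 38, 39 and 46 in LMI070 and 46, 37, 58 and 49 in DMSO. The skipping form was thus the main form in all 8 libraries. The 95% Wilson interval, which covers counting error only, ran from 2.52% to 19.4% in LMI070 replicate 14, the lowest of its group. In DMSO replicate 9, the highest of its group, it ran from 1.15% to 13.98%, so these 2 libraries were not separated beyond counting error. In DMSO replicate 10, with a count of 0, the interval reached 9.41%, and a floor of 3 reads over both junctions would be a share of 3.90%. The upper end of that interval lies above the inclusion in LMI070 replicates 14 and 15.

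**Figure D1:**
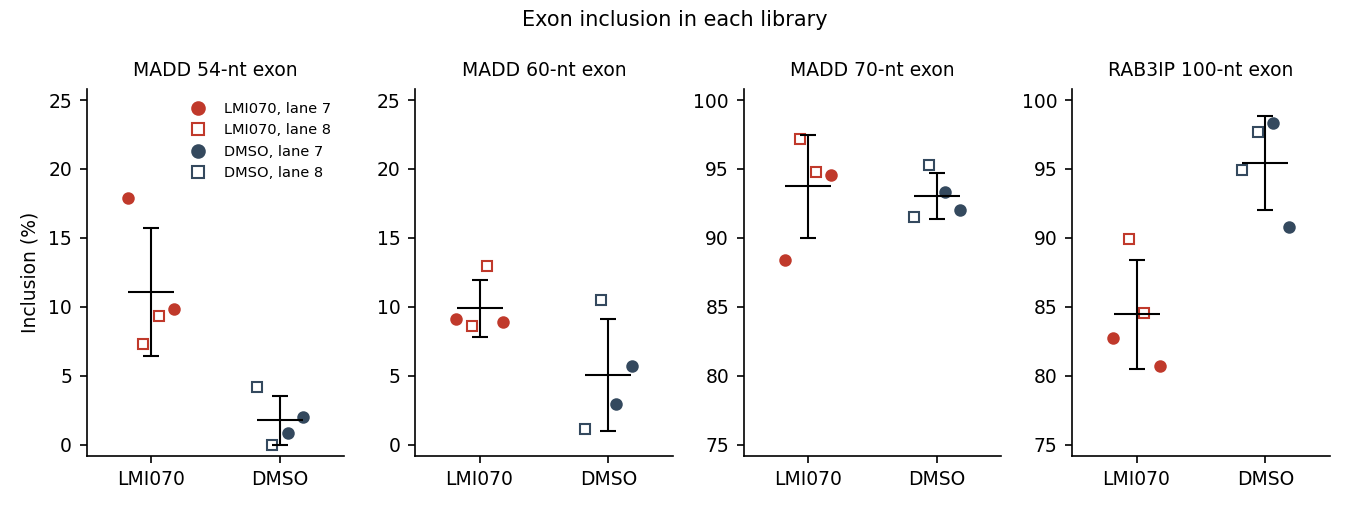
Inclusion in percent of 3 MADD exons and 1 RAB3IP exon in each library, LMI070 left and DMSO right, with filled points for lane 7 and open points for lane 8. Horizontal bars are means and whiskers SD (n = 4). The right-hand pair of panels starts at 75%. The groups do not overlap for the 54-nt MADD exon (7.32% to 17.9% in LMI070, 0% to 4.17% in DMSO) or the RAB3IP exon (80.7% to 89.9% in LMI070, 90.8% to 98.3% in DMSO), and they overlap for the other 2.

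The 3 exons of other genes whose inclusion over the 8 libraries was closest to that of the 54-nt MADD exon were all unannotated. They were found among 38028 exons by the root mean square difference. A 108-nt exon of EVC, a ciliary gene, differed by 2.59 points and had 10.7% ± 2.47 in LMI070 and no read in DMSO. A 103-nt and a 438-nt form in WDR27 that overlap each other differed by 2.64 and 2.86 points. For the RAB3IP exon the closest of 38034 were annotated or partly annotated exons of CU633906.2, PPP2R1B and PPHLN1, at 3.25, 3.42 and 3.46 points.

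MADD splice forms are distinguished by a small set of alternative exons, among them the alternative end of exon 13 and exons 16, 21, 26 and 34, so each was measured. The exon of 60 nt (exon 16, 20 codons) was included at 9.09%, 8.57%, 12.9% and 8.93% in LMI070, against 1.10%, 10.5%, 2.97% and 5.71% in DMSO. The groups overlapped through DMSO replicate 10, and the means were 9.88% ± 2.05 in LMI070 and 5.07% ± 4.08 in DMSO, a difference of 4.82 points. The exon of 70 nt (exon 34) was included at 88.4%, 97.1%, 94.8% and 94.5% in LMI070, against 91.5%, 95.3%, 93.3% and 92% in DMSO, with a difference of 0.68 points. It is not a whole number of codons long, and MADD-204 and MADD-209, which lack it, end their reading frame at 47328678 rather than at 47329147.

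Exon 13 of MADD has 2 alternative 5′ ends of the following intron, which lie 129 nt (43 codons) apart and were used about equally. The longer exon, with the intron from 47285195, had a share of 53.7%, 51.7%, 49.3% and 55.6% in LMI070, against 50%, 47.4%, 48.5% and 39.2% in DMSO. Means were 52.5% ± 2.70 in LMI070 and 46.3% ± 4.83 in DMSO, and the ranges overlapped. These shares rest on 149 and 134 reads for the longer and the shorter exon in LMI070 and on 118 and 135 in DMSO. Further along, a set of 3 neighbouring 5′ splice sites, with introns from 47295568, 47295577 and 47295580, joined the same exon with shares of 27.0%, 17.7% and 55.4% in LMI070 and 28.1%, 17.3% and 54.6% in DMSO. The other two lie 9 and 12 nt after the first, so each keeps the reading frame. None of the 3 group means differed by more than 1.14 points.

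Exon 26 of MADD-201 (63 nt, chr11:47308980-47309042) had no read at either junction in any library, while 346 reads in LMI070 and 308 in DMSO skipped it. A floor of 3 reads over the junctions of each group allows an inclusion of up to 0.432% in LMI070 and 0.485% in DMSO. In the same way a 21-nt exon of RAB3GAP1-203 (exon 24, chr2:135167693-135167713) had no read, against 864 skipping reads in LMI070 and 797 in DMSO. MADD joined its second exon mainly from 3 sites, with introns from 47269751, 47269907 and 47270247. Junctions from 47269645 and 47269875 had at most 4 and 2 reads in a library. The shares below are of all annotated junctions into that exon. They thus count the reads from 47269645 in the total and leave out 47269875, which is unannotated. The shares of the 3 sites were 28.96% ± 10.02, 27.8% ± 13.8 and 37.3% ± 7.23 in LMI070. In DMSO they were 26.9% ± 5.79, 28.4% ± 10.1 and 41.3% ± 15.7. They rest on 36, 36 and 46 reads in LMI070 and 33, 35 and 50 reads in DMSO. The site at 47270247 also joined the third exon directly, leaving out the second. That junction held 16.4% ± 19.5 of the annotated reads from the site in LMI070 and 5.13% ± 6.775 in DMSO. It had 11 reads in LMI070 and 4 in DMSO. The ranges overlapped, and LMI070 replicate 13 was highest at 44.4%. The choice of these sites was made from the DMSO shares and the annotation after the values had been seen.

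**Figure D2:**
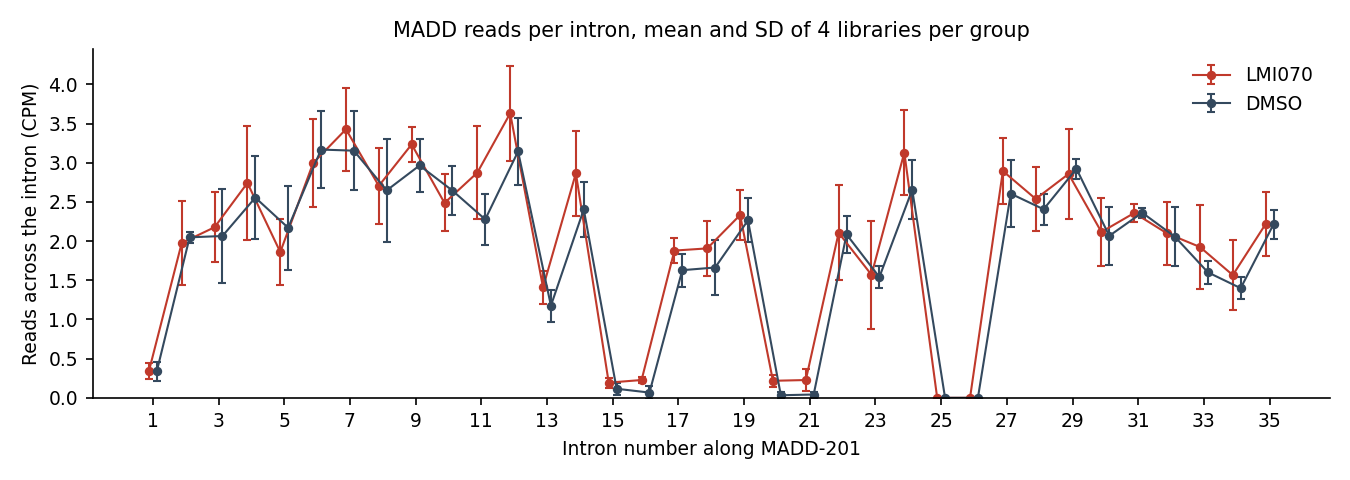
Reads across each intron of MADD-201 in CPM, against the number of the intron from the 5′ end, as mean and SD of 4 libraries for LMI070 and DMSO. Introns 15 and 16 flank the 60-nt exon and introns 20 and 21 the 54-nt exon, and introns 25 and 26, which flank the 63-nt exon, are at 0 in both groups.

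RAB3IP, the Rab8 exchange factor, had lower inclusion of its 100-nt exon in every LMI070 library than in any DMSO library. It was 82.7%, 89.9%, 84.5% and 80.7% in LMI070 replicates 13, 14, 15 and 16, against 94.9%, 97.7%, 98.3% and 90.8% in DMSO replicates 9, 10, 11 and 12. The group means were 84.5% ± 3.95 in LMI070 and 95.4% ± 3.43 in DMSO, a difference of -10.98 points. DMSO replicate 12, one of the libraries that stood apart, was the lowest of its group, and without it the difference was -12.5 points. LMI070 replicate 16, the other such library, was also the lowest of its group, and without it the difference was -9.72 points.

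Reads that skipped the exon numbered 27, 10, 14 and 20 in LMI070, against 5, 3, 2 and 11 in DMSO. Reads into it numbered 121, 83, 81 and 91 in LMI070 and 95, 128, 117 and 119 in DMSO. Reads out of it numbered 138, 95, 72 and 76 in LMI070 and 93, 124, 121 and 98 in DMSO. Summed over libraries, 71 reads in LMI070 and 21 in DMSO joined the flanking exons directly. Both inclusion junctions are also annotated in the readthrough gene AC025263.2, and reads of that gene cannot be told apart from those of RAB3IP. They are the only introns of the 5 genes that are shared with another gene, and they hold 17.6% of the RAB3IP reads.

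**Figure D3:**
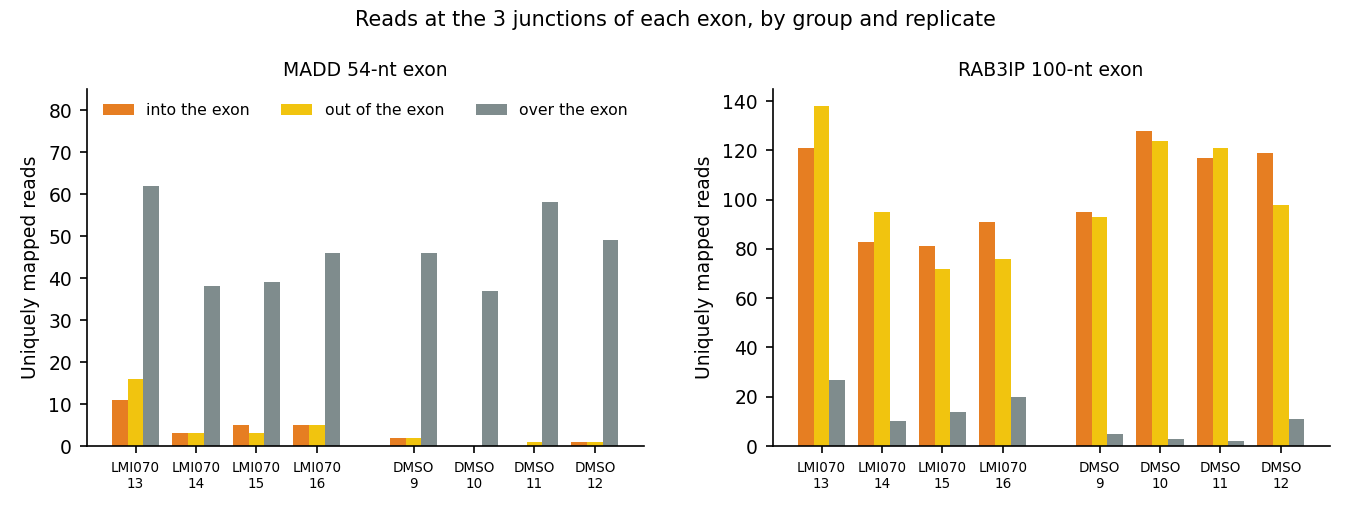
Uniquely mapped reads into, out of and over the 54-nt MADD exon and the 100-nt RAB3IP exon in each library, LMI070 replicates 13 to 16 left and DMSO replicates 9 to 12 right. Reads over the MADD exon exceed those at its own junctions in all 8 libraries, and reads over the RAB3IP exon lie between 10 and 27 in LMI070 and between 2 and 11 in DMSO.

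The RAB3IP exon is not a whole number of codons long. In RAB3IP-201, which holds it, the coding part is 1380 nt and ends at 69815443. In RAB3IP-207, which skips it, the coding part is 1185 nt and ends at 69813018, in the next exon. The skipping junction thus belongs to annotated coding transcripts with another C-terminus, and also to RAB3IP-203, which is annotated as a target of nonsense-mediated decay. RAB3IP-205 and RAB3IP-216, which hold the exon, are annotated as such targets too. The exon holds the letters AGAGTAAG, which join a GA exon end to an intron start.
RAB3IP exon, window at chr12:69812792-69812811: ctggccAGAGTAAGtcctgt
An intron cut there would begin after 23 bases of the exon, at 69812801, and leave out its other 77 nt. No junction in any library began there. The motif was searched on both strands, and 5 of 2942 tested annotated exons of 90 to 110 nt hold it on the sense strand (0.17%) and 2 on the other strand. It is described because this exon, already selected, holds it, so nothing is read from its rarity. A part of the motif in the inclusion of the exon was not tested.

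Other splice choices of RAB3IP were close in both groups. The first exon that joins from 69739032 had 93.4%, 93.8%, 94.0% and 92.9% in LMI070 and 91.7%, 94.5%, 95.7% and 95% in DMSO, the rest coming from a first exon that joins from 69739870. A 5′ splice site at 69800333, which lies 5 nt before the main site at 69800338, had 11.7% ± 2.77 in LMI070 and 9.94% ± 2.26 in DMSO. These ranges overlapped. Unannotated exons of 43 and 173 nt lie within the fourth intron of RAB3IP-201. They were included at 1.03% ± 0.468 and 1.52% ± 1.23 in LMI070 and 1.48% ± 0.188 and 1.29% ± 0.409 in DMSO.

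Over all 5 genes 125 cassette exons could be formed from the junctions. Of these, 19 had enough reads to be tested: 10 in MADD, 4 in RAB3IP and 5 in RAB3GAP2. Forms of an exon that differ at either end are counted separately. The call required an adjusted p under 0.05 in edgeR's quasi-likelihood test and a change of at least 10 points. By that call 53 of 38038 exons of all genes were higher in LMI070 (0.139%) and 2 were lower (0.00526%). Of the 19 exons, 0 were called higher and 1 lower, the RAB3IP exon that had been chosen for this difference. No exon of MADD was called, and the 54-nt exon was also under the 10 points. Among junctions, 86 of 129495 were called (0.0664%). The junction that skips the 54-nt MADD exon was not called. Its share of the reads at its sites was 76.2% ± 5.39 in LMI070 and 92.8% ± 5.56 in DMSO, a difference of -16.58 points. That share counts the reads at both of its splice sites, so a transcript that includes the exon can be counted at each end. The difference is thus larger by construction than the one in inclusion, and the scales are not comparable. Of the 110 tested junctions of the 5 genes 2 were called, both of them the inclusion junctions of the RAB3IP exon, with differences of -10.98 and -12.13 points in their shares.

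The call on the RAB3IP exon and its junctions used the values by which the gene was selected and supports nothing further. It was not made on the exon without DMSO replicate 11, without LMI070 replicate 16, in either lane alone or by DESeq2. The difference for the exon lay between -12.86 points, in lane 7 alone, and -9.10 points, in lane 8 alone, in all alternatives. For the 54-nt MADD exon the difference lay between 6.23 points, in lane 8 alone, and 12.4 points, in lane 7 alone, in all alternatives.

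RAB3GAP1 and RAB3GAP2, the subunits of Rab3GAP, had no called exon or junction. RAB3GAP1 had 34 cassette exons in the junction tables, none with enough reads of both forms to be tested. RAB3GAP2 had 33, of which 5 were tested. Their differences lay between 0.0160 and 0.726 points, with an adjusted p of 0.9998 for each by edgeR's quasi-likelihood test. The 5 hold 78-nt and 127-nt forms of its 102-nt exon 7, with only 2 and 1 reads at their own junction. The 102-nt exon itself was included at 97.7% ± 1.27 in LMI070 and 97.7% ± 1.69 in DMSO. The 128-nt exon 19 of RAB3GAP2 was included at 99.3% ± 0.82 in LMI070 and 98.6% ± 1.19 in DMSO. Of the 60 tested junctions of RAB3GAP1, RAB3GAP2 and RAB8A 0 were called by edgeR, against 0.0664% of all junctions, and 1, in RAB3GAP1, had an unadjusted p under 0.05. The largest difference in share among the 60 was -9.94 points, for the RAB3GAP1 junction at chr2:135168750-135169733, picked out after its values had been seen. Its share was 86.7% ± 9.97 in LMI070 and 96.7% ± 6.67 in DMSO, with an adjusted p of 0.977 by edgeR. It had 18, 11, 15 and 17 reads in LMI070 and 15, 13, 13 and 10 in DMSO. No exon of RAB3GAP2 was called by DESeq2 or had an unadjusted p under 0.05. Unannotated junctions held 0.500% of the reads of RAB3GAP1 and 0.715% of those of RAB3GAP2, against 1.13% for MADD and 1.29% for RAB3IP.

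RAB8A had 8 cassette exons in the tables and none with enough reads to be tested. Its intron 7 had an unannotated 3′ splice site, with the intron ending at 16129877, used by 13, 6, 7 and 12 reads in LMI070 and by 2, 7, 5 and 7 in DMSO, and it was picked out after its values had been seen. Its share of the reads at its sites was 2.80% ± 1.23 in LMI070 and 1.61% ± 0.725 in DMSO, and the adjusted p over all junctions was 0.977 by edgeR's quasi-likelihood test. The ranges of reads overlapped.

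Levels of the genes were taken as spliced reads per gene in CPM. In the test across all genes 3 of 14404 were called higher in LMI070 (0.0208%) and 15 lower (0.104%), and none of RAB3GAP1, RAB3GAP2 and RAB8A was among them. MADD had 85.2, 72.7, 70.9 and 89.8 CPM in LMI070 replicates 13, 14, 15 and 16, against 73.0, 72.7, 79.8 and 74.7 CPM in DMSO replicates 9, 10, 11 and 12. Both LMI070 libraries of lane 7 were above all others. The log2 ratio of LMI070 to DMSO was 0.18 within lane 7 and -0.02 within lane 8. RAB3IP had 41.8, 42.4, 43.5 and 46.0 CPM in LMI070, against 46.2, 45.7, 48.1 and 50.7 CPM in DMSO, so that the groups overlapped only through LMI070 replicate 16.

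Reads across introns 8 and 9 of RAB3IP-201, the inclusion junctions, averaged 3.58 and 3.53 CPM in LMI070 and 4.62 and 4.37 CPM in DMSO. Intron 5 had 5.03 CPM in LMI070 and 4.98 CPM in DMSO, and intron 10, the last, had 5.03 CPM in LMI070 and 5.47 CPM in DMSO. Over the gene the log2 fold change was -0.14 with a standard error of 0.053. That value sums over introns 8 and 9 as well, so it is not independent of the inclusion of the selected exon. For MADD the log2 fold change was 0.08 with a standard error of 0.051. The MADD value was 0.04 without DMSO replicate 12 and 0.05 without LMI070 replicate 16.

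RAB3GAP1 had 165.7, 164.2, 166.0 and 163.2 CPM in LMI070, against 160.9, 162.0, 161.2 and 181.7 CPM in DMSO. The fold change on the log2 scale was -0.01 ± 0.044 (SE), with an adjusted p of 0.938 by edgeR's quasi-likelihood test. Its sign turned on DMSO replicate 12, without which it was 0.03 with an adjusted p of 0.883 by the same test. Without LMI070 replicate 16 it was -0.00054. RAB3GAP2 had 157.5, 150.8, 155.5 and 152.2 CPM in LMI070, against 148.7, 159.3, 154.5 and 168.2 CPM in DMSO, a log2 fold change of -0.03 ± 0.043 (SE) and an adjusted p of 0.818 by edgeR. It lay between -0.0558 and -0.00368 with 1 library left out, and was nearest to 0 without DMSO replicate 12. Without LMI070 replicate 16 it was -0.0195. RAB8A had 116.4, 120.1, 114.1 and 104.1 CPM in LMI070, against 111.5, 113.6, 94.1 and 109.5 CPM in DMSO, a log2 fold change of 0.09 ± 0.053 (SE) and an adjusted p of 0.576 by edgeR. It was 0.04 without DMSO replicate 11, 0.05 without LMI070 replicate 13, 0.13 without DMSO replicate 12 and 0.11 without LMI070 replicate 16. The groups overlapped for all 3 genes. Fewer cells that express a gene and less RNA per cell cannot be told apart in these bulk libraries.

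To set genes beside each other, the median over the introns of 1 transcript per gene was used, since a gene with more introns gathers more spliced reads. On that scale RAB8A was highest, with 16.4 ± 0.915 CPM per intron in LMI070 and 15.4 ± 1.34 in DMSO. RAB3GAP1 followed with 6.69 ± 0.294 CPM per intron in LMI070 and 6.74 ± 0.478 in DMSO. RAB3IP had 4.28 ± 0.232 in LMI070 and 4.74 ± 0.358 in DMSO, and RAB3GAP2 had 4.58 ± 0.0895 in LMI070 and 4.60 ± 0.219 in DMSO. MADD was lowest, with 2.21 ± 0.299 in LMI070 and 2.03 ± 0.0605 in DMSO. RAB3IP and RAB3GAP2 did not differ beyond their spread in DMSO, where RAB3IP was the higher in 3 of 4 libraries. In LMI070 RAB3IP was the higher in no library. The other neighbours kept this order in all 8 libraries.

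**Figure D4:**
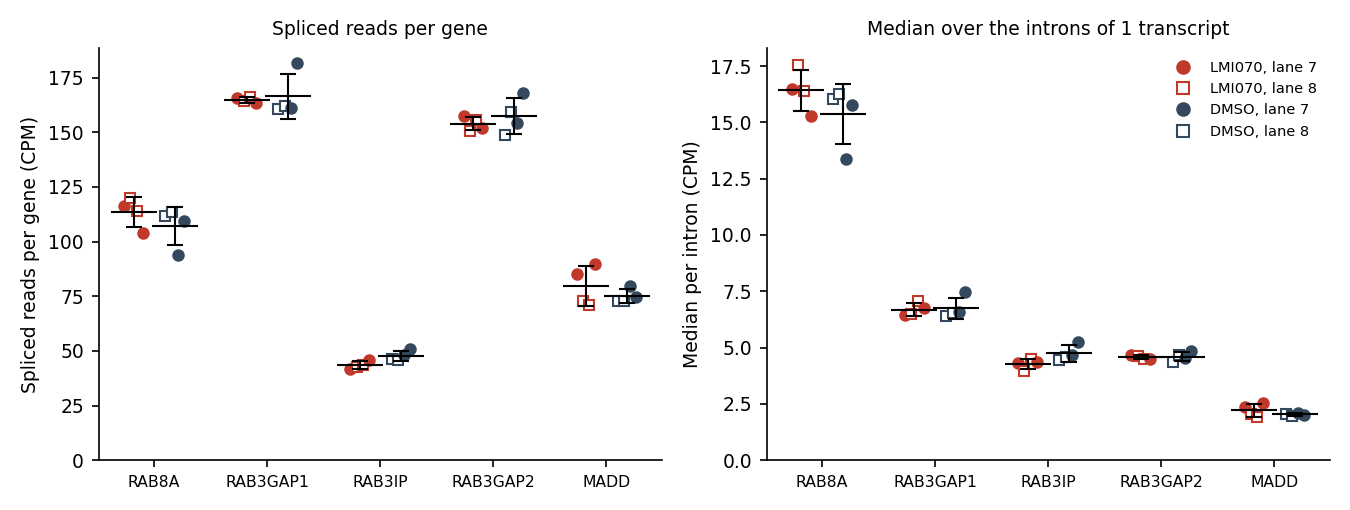
Left, spliced reads per gene in CPM. Right, the median over the introns of 1 transcript in CPM, with genes ordered by their DMSO mean on this scale. Points are libraries (filled for lane 7, open for lane 8), LMI070 left and DMSO right of each gene, with mean and SD (n = 4). RAB8A lies between 15.3 and 17.5 CPM per intron in LMI070 and between 13.4 and 16.3 in DMSO, and MADD between 1.90 and 2.56 in LMI070 and between 1.95 and 2.09 in DMSO.

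The wider pathway was read from 7 lists of 89 genes: the Rab3 and Rab27 GTPases, the Rab8 and Rab11 GTPases, their exchange factors and GAPs, their effectors, Rabin8 partners with the exocyst, DENN domain proteins, and TNF and TRAIL receptor signalling. Besides the 5 genes, 77 were tested, and edgeR's quasi-likelihood test called 0 higher and 0 lower. Over all genes it called 0.0208% higher and 0.104% lower. At an unadjusted p under 0.05 there were 4, and DESeq2 called 1, against 9 higher and 28 lower over all genes. No share over all features at an unadjusted p is given here, so nothing is read from such counts. The median log2 fold change of the tested genes of the lists was -0.01, against 0.00323 over all 14404 genes. Over all features edgeR called 0.139% of exons higher, 0.00526% of exons lower and 0.0664% of junctions. At shares this low, counts of 0 in the lists are not read as a result. Without the 5 genes, the 209 tested exons of the lists gave 0 calls by edgeR and by DESeq2, with 10 at an unadjusted p under 0.05. The 999 tested junctions gave 0 calls by edgeR, with 31 at an unadjusted p under 0.05. Of these, 1 junction had an adjusted p under 0.05 but a change under 10 points, and it was picked out after its values had been seen. It is an unannotated junction of AVL9, a DENN domain protein of the secretory pathway (chr7:32559465-32562557), with 6, 9, 6 and 9 reads in LMI070 and 0, 0, 0 and 1 in DMSO. Its share of the reads at its sites was 7.89% ± 1.80 in LMI070 and 0.25% ± 0.5 in DMSO, with an adjusted p of 0.00305 by edgeR's quasi-likelihood test.

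The 4 genes at an unadjusted p under 0.05 lie outside the naming rule and were chosen after their values had been seen. They are described only, and nothing about the pathway is read from them. DENND5A, a DENN domain protein that binds Rab6, had 165.4 to 179.4 CPM in LMI070 and 185.6 to 199 CPM in DMSO, so the groups did not overlap. Its log2 fold change was -0.17 ± 0.038 (SE), with an adjusted p of 0.171 by edgeR, and it was the gene that DESeq2 called, with an adjusted p of 0.015. EXOC2, the exocyst subunit Sec5, had 217.5 to 228.7 CPM in LMI070 and 236.4 to 257.1 CPM in DMSO, with a log2 fold change of -0.15 ± 0.040 (SE) and an adjusted p of 0.280 by edgeR. AVL9 had a log2 fold change of -0.14 ± 0.062 (SE). KIF1A, a kinesin that carries synaptic vesicle precursors and binds MADD, had 103.4 to 125.1 CPM in LMI070 and 92.3 to 114.2 CPM in DMSO, with a log2 fold change of 0.15 ± 0.060 (SE) and an adjusted p of 0.432 by edgeR.

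Each list held values on both sides of 0. Of the Rab3 and Rab27 GTPases, the targets of MADD, 5 of 6 were tested and 0 called. Only the Rab3 members are also targets of Rab3GAP. RAB3A had 3.06 ± 1.07 CPM in LMI070 and 3.26 ± 0.424 CPM in DMSO, RAB3B had 5.29 ± 0.337 CPM in LMI070 and 5.87 ± 0.699 CPM in DMSO, and RAB3D had 9.23 ± 2.08 CPM in LMI070 and 7.81 ± 1.21 CPM in DMSO. Of the exchange factors and GAPs other than the 5 genes 8 were tested and 0 called. They included GDI2, a GDP dissociation inhibitor that extracts Rabs from membranes, at 390.7 ± 10.98 CPM in LMI070 and 404.5 ± 14.3 CPM in DMSO. TNFRSF1A, the receptor TNFR1 that MADD binds, had 35.0 ± 4.22 CPM in LMI070 and 32.6 ± 1.75 CPM in DMSO. RAB3C, RPH3A, MLPH, MYRIP, DENND1C and DENND2D were below the expression filter, and EXOC8 had no junction.

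**Figure D5:**
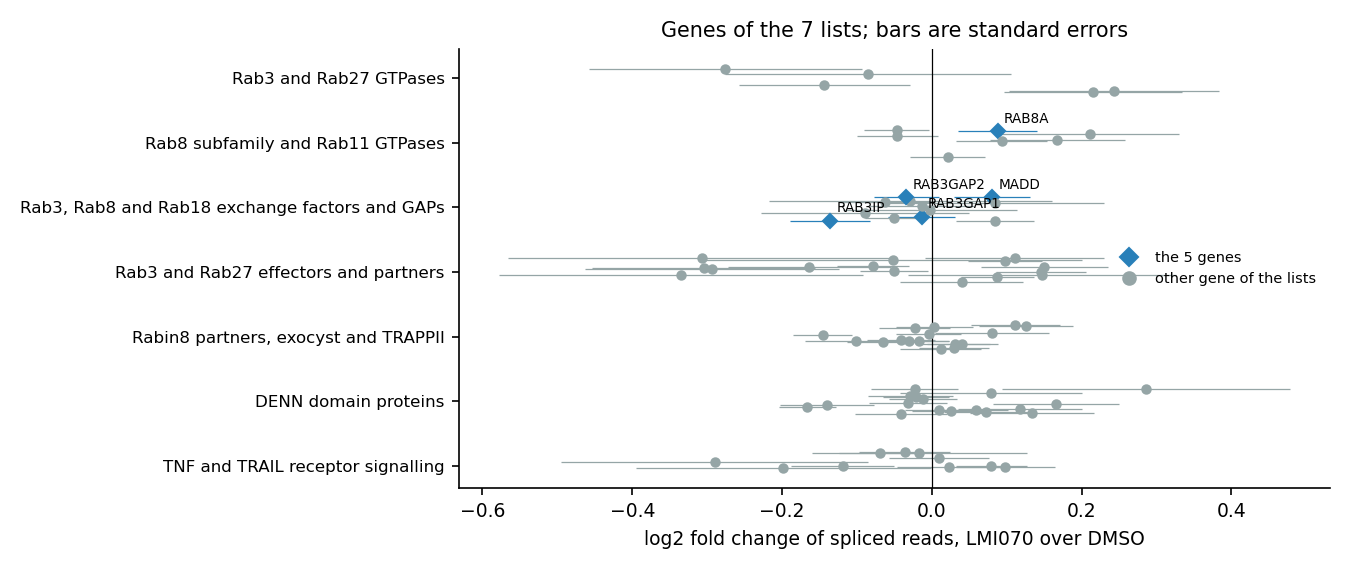
Fold changes of spliced reads on the log2 scale, LMI070 over DMSO, for each tested gene of the 7 lists, with standard errors as bars. The 5 genes are diamonds with names. Values lie between -0.33 and 0.29, on both sides of 0 in each list.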

How the data were processed

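Per the labels, total RNA from HEK293 cells was depleted of ribosomal RNA and sequenced as stranded libraries. Alignment used STAR 2.6.0c and the GRCh38 build, per the submitters' processing notes. There is 1 deposited table per library, which holds raw counts of uniquely and of multiply mapped reads across each splice junction, without normalization by the authors. Alignment settings are not given in the sources used here, and reads that cross no junction are absent from the tables, so a retained intron is not seen.

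Uniquely mapped counts were matched to GENCODE 29 introns. A cassette exon was 3 to 500 nt long, with a junction on each side and 1 that skips it, and was kept once, with the flanking sites that had most reads. Exons needed 10 inclusion and 10 skipping reads over all libraries and 10 reads in each library. Junctions needed 20 reads over all libraries and 10 reads at their sites in each. Genes were summed over annotated introns and filtered with filterByExpr of edgeR. All were fitted with edgeR 4.0.16 in R 4.3.3 (quasi-likelihood F test, lane and treatment, TMM for genes, Benjamini-Hochberg over all features); DESeq2 1.42.0, other filters, single lanes and leaving out each library were alternatives. CPM were computed from library totals and TMM factors. In simulated counts with known changes the exon test recovered 62% of shifts of 20 points and 90% of shifts of 30 points over 38038 exons, with 0 false calls. The junction test recovered 53% and 83% of such shifts over 129495 junctions, with 0 false calls, and the gene test 94% of changes of 1.5-fold over 14355 genes, with 8 false calls. Exon and junction counts were drawn binomially from 1 pooled share per feature, without added spread between libraries or lanes. Only features of low to middle share were shifted. These rates thus do not describe changes near 10 points, or exons that are almost always skipped or included, in the real libraries.

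Libraries of a group were compared in pairs by a chi-square test of spliced reads per gene. The chi-square per degree of freedom lay between 1.92 and 12.9, so none holds the same counts as another. In LMI070 it was 1.92 and 3.73 for pairs within a lane and 10.6 to 12.9 for pairs across lanes. In DMSO it was 1.95 and 7.20 within a lane and 3.88 to 7.87 across lanes. This comparison cannot tell whether libraries came from the same culture. All members are named. Exons named were the MADD and RAB3IP exon, tested exons with DMSO inclusion of 5% to 95%, and features past the call, and for each of the first 2 the 3 closest exons of other genes. The 264-nt and 288-nt forms of the 70-nt MADD exon met that rule on 1 and 3 reads of their own junction and are not described further. Genes of the pathway lists were to be named where called, and 0 were, so list genes in the text, and the RAB3IP exons of 43 and 173 nt and RAB3GAP2 exons of 102 and 128 nt, were named outside this rule after their values had been seen. The genes and lists were chosen with earlier results of these data known.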

Additional observations from a re-analysis of the deposited data

Results flagged for a closer look

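Of 60 groups of 4 values looked at, 4 held a library whose gap to the nearest of the others, divided by the range of the group, was above Dixon's 95% critical value. Chance flags about 1 in 20 groups. Inclusion of the 60-nt MADD exon was 12.9% in LMI070 replicate 15, and the next LMI070 library had 9.09%. RAB3GAP1 had 181.7 CPM of spliced reads in DMSO replicate 12, and the next DMSO library had 162 CPM. Its median per intron was 7.45 CPM in the same library, and the next had 6.56 CPM. RAB8A had a median per intron of 13.4 CPM in DMSO replicate 11, the lowest of its group, and the next had 15.8 CPM.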

How the results depend on the processing

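Over 17 results and 249 alternative values, 219 were counted as having kept their direction and side of the threshold or stayed within the spread between libraries. The 219 include the log2 fold change of MADD in lane 8 alone, -0.0194 against 0.0807, whose sign differed. They leave out 2 values of RAB3GAP1 whose sign differed. Exons called higher numbered 35 in lane 7 alone and 35 in lane 8 alone, against 53 in all libraries, and 47 to 54 with 1 library left out. Exons called lower numbered 2, against 0 in lane 7 alone, 0 in lane 8 alone and 0 with DESeq2, and 1 to 5 with 1 library left out. Junctions called numbered 53 in lane 7 alone and 50 in lane 8 alone, against 86, and 74 to 82 with 1 library left out. Genes called higher numbered 3, against 9 with DESeq2, 529 in lane 7 alone, 10 in lane 8 alone and 211 without the low-count filter, and 2 to 5 with 1 library left out. Genes called lower numbered 15, against 28 with DESeq2, 137 in lane 7 alone, 37 in lane 8 alone and 61 without the filter, and 8 to 15 with 1 library left out. Genes of the lists other than the 5 were called in 0 cases, and in 0 cases with any 1 library left out. DENND5A was the 1 gene called with DESeq2, the 1 called in lane 8 alone and the 1 called without the filter, and lane 7 alone called 5, namely DENND4B, KIF1B, MICALL1, RAB11B and RAB3D, all higher in LMI070. The causes were not tested. The log2 fold change of RAB3GAP1 was -0.01, against 0.0316 in lane 8 alone (adjusted p of 0.94 by edgeR) and 0.0315 without DMSO replicate 12, the highest of -0.0393 to 0.0315 with 1 library left out. Over all alternatives the adjusted p by edgeR or DESeq2 lay between 0.699 and 0.999 for RAB3GAP1, 0.700 and 0.992 for RAB3GAP2, and 0.488 and 0.905 for RAB8A. The 264-nt and 288-nt forms of the 70-nt MADD exon moved to -6.25 and 9.03 points when 1 junction alone was counted. No paired analysis was possible because the groups share no replicate number. With 3 to 16 reads at its junctions in each LMI070 library, depth limits the 54-nt MADD exon.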
